A study of Mus musculus with 7 samples.

Results

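The proteasome is the protease that degrades most ubiquitin-tagged proteins of the cell. Its barrel-shaped core particle is built from rings of alpha subunits, which form the gate, and rings of beta subunits, which include the catalytic ones. The regulatory particle that caps the core has a base, with a ring of ATPases that unfold the substrate, and a lid, which removes the ubiquitin chain. In neurons the ubiquitin-proteasome system is known for its part in synaptic protein turnover. The genes described here were the rows of the deposited table typed as protein coding whose symbol was Psma, Psmb, Psmc or Psmd followed by a digit. The rule took 40 of the 55416 genes in the table, of which 21885 were protein coding. By their known roles, 19 encode the core particle (7 constitutive alpha, 7 constitutive beta and 5 alternative subunits) and 17 the regulatory particle (6 ATPases, 3 other base subunits and 8 lid subunits). Another 3 (Psmd5, Psmd9 and Psmd10) encode chaperones that assemble the base, and 1 (Psmc3ip, a meiotic recombination factor) matched by name only and encodes no proteasome subunit. The lid subunit gene Sem1 and the ubiquitin receptor gene Adrm1 do not carry such symbols and were counted with the related genes instead.

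RNA-seq was performed on the prefrontal cortex (PFC) of female C57BL/6 wild-type mice that had received recombinant adeno-associated virus (AAV) by stereotaxic injection on both sides of the PFC. The Ctr group (3 libraries) received the empty vector, the Ref group (2 libraries) a vector with the human long noncoding RNA PAXIP1-AS1 carrying the reference C allele of a single-base variant, and the Alt group (2 libraries) the same RNA with the alternative G allele. All vectors carried an EGFP reporter and the human synapsin I promoter, which is active in neurons, and PAXIP1-AS1 has no homologous sequence in the mouse genome, so the transgene could not be checked among the mouse genes. The sources used here give no age for these mice and do not say whether each library came from a separate animal, so p-values measure the spread between these libraries, which may in part be technical. The comparison of Alt with Ctr and with Ref asks what the G allele did beyond the vector and beyond the C allele, and that of Ref with Ctr what the C allele did.

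Library totals ran from 16655697 counts in Alt replicate 1 to 20750857 in Ctr replicate 3. Counts of the 2 Alt libraries differed from each other by 62.4 times the Poisson expectation (chi-square per degree of freedom), against 19.7 to 26.7 for pairs of libraries within Ctr or Ref. All 9 neuronal marker genes had more than 3 counts in every library, with a summed level of 5706 to 6367 CPM (counts scaled to the library's effective size) in Ctr, 5257 and 5740 in Ref and 6232 and 6296 in Alt. Oligodendrocyte markers summed to 2214 to 3081 CPM in Ctr, 3731 and 4614 in Ref and 2634 and 2143 in Alt, and 6 of 7 were higher in Ref than in Ctr at an unadjusted p under 0.05 (edgeR), where 2.19% of all genes were. The other lists (5 astrocyte, 7 microglia, 4 endothelial and 6 striatal markers) had all their genes above 3 counts in every library, and their median log2 fold changes of Alt versus Ctr were 0.10, -0.10, 0.15 and -0.21, beside -0.28 for the oligodendrocyte list. At the same threshold 2 of 7 oligodendrocyte markers were lower in Alt than in Ctr, and 3 of 7 microglia markers were lower in Alt than in Ctr and than in Ref (10.3% and 8.83% of all genes), with 1 of 7 higher than in Ctr (9.45%) and 0 higher than in Ref. Of 9 neuronal markers 2 were lower in Ref than in Ctr (0.945% of all genes) and 2 higher in Alt than in Ref (6.71%). In Alt versus Ctr 1 of the 9 was lower and 1 higher, and 2 of 5 astrocyte markers were higher in Ref than in Ctr. Single endothelial markers were higher in Alt and in Ref than in Ctr. A single endothelial and a single striatal marker were lower in Alt than in Ref. Whether these differences had a part in the proteasome values was not tested.

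At the level of TPM (transcripts scaled to a common total, which corrects for gene length and so allows genes to be compared), the proteasome genes were among the more abundant protein-coding genes of the Ctr cortex. The most abundant was Psmc5, an ATPase of the base, with 259 ± 25.5 TPM (SD, n = 3), above 98.4% of protein-coding genes. Psma6 of the alpha ring followed with 181 ± 14.3, and Psmd2, the large scaffold of the base, with 154 ± 5.11 TPM. All Ctr libraries of Psmc5 lay above those of Psma6, and all of Psma6 above those of Psmd2, but Psmd2 and Psmc1 (153 ± 27.6 TPM) overlapped. From Psmb5 (94.4 ± 20.7 TPM) down to Psmd5 (27.2 ± 0.213 TPM), no neighbors in the order were separated in all libraries. Constitutive subunits ended with Psmd11 of the lid at 25.2 ± 2.39 TPM, so that their levels spanned 10.3-fold. The span depends on the length used, since CPM per 1000 bases of the longest protein-coding transcript spanned 4.87-fold, again from Psmc5 to Psmd11. Of the 3 chaperones Psmd5 lay among the lowest subunits and the other two lay below them, with Psmd10 (gankyrin) at 18.7 ± 2.66 and Psmd9 at 7.13 ± 1.12 TPM.

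The alternative core subunits other than Psmb10 stood below this range. Psmb8 and Psmb9, which replace catalytic subunits in the immunoproteasome, reached 3.32 ± 1.68 and 0.892 ± 0.282 TPM in Ctr, while Psmb10, the remaining immunoproteasome subunit, was at 31.5 ± 6.80 TPM. Psmb11, the thymus subunit, had 3 and 4 counts in 1 Ctr and 1 Ref library (exact 95% Poisson intervals 0.619 to 8.77 and 1.09 to 10.2) and 0 in the other 5 libraries. Psma8, the testis subunit, had 0, 0 and 1 counts in Ctr, 14 and 13 in Ref, and 0 and 13 in Alt. A count of 0 allows up to 3 counts as a one-sided limit (3.69 as the upper bound of the two-sided interval), and these intervals and limits cover counting error only. Psmb11 did not pass the filter on low counts, so 39 of the 40 genes were tested.

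**Figure D1:**
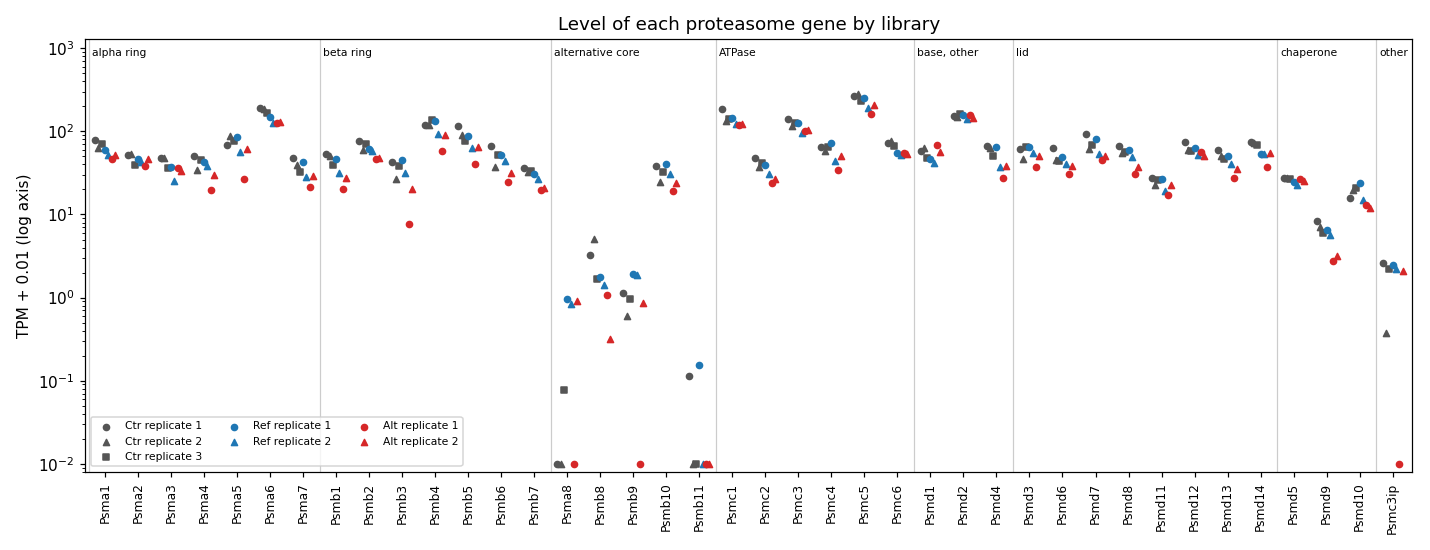
Level of each of the 40 genes in TPM plus 0.01 (log axis), with a point for each library, colored by group and shaped by replicate. The constitutive subunits sit between Psmd11 and Psmc5, at 25.2 to 259 TPM as means of Ctr, whereas Psma8, Psmb8, Psmb9 and Psmb11 lie far below and Psmb3 is lowest in Alt replicate 1.

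Summed over the 40 genes, the TPM level was 2365 to 2720 in the Ctr libraries, 2435 and 1916 in Ref, and 1629 and 1899 in Alt. Both Alt libraries were thus below every Ctr and Ref library, Alt replicate 2 only narrowly. The core particle summed to 947 to 1094 TPM in Ctr and to 551 and 710 in Alt, and the regulatory particle to 1362 to 1572 in Ctr and to 1035 and 1147 in Alt. In Ref the core summed to 965 and 753, and the regulatory particle to 1412 and 1118. For the regulatory particle, Ref replicate 2 therefore lay between the Alt libraries. In bulk tissue, fewer cells of a type and less RNA per cell cannot be told apart.

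Compared with Ctr, Alt had lower estimates for most proteasome genes and for the whole beta ring, none of which passed after adjustment for all genes. At an unadjusted p under 0.05 (edgeR's quasi-likelihood test on the counts), 21 of the 39 genes tested were lower in Alt and 0 were higher, where 19.8% of all 17254 genes tested passed in either direction, 10.3% being lower and 9.45% higher. Below, a gene is said to pass, or to be lower or higher, at this unadjusted threshold, and adjusted p-values are those of edgeR's test with Benjamini-Hochberg adjustment over all genes tested. After this adjustment 0 of the 39 passed 0.05 (their smallest adjusted p was 0.12), and no other gene did either (0 of 17254, or 0.0%). DESeq2's Wald test on the same counts placed 9 of the 39 under an adjusted p of 0.05, all lower, where it placed 6.51% of all genes. Without the filter on low counts edgeR placed 14 there, where 5.52% of all genes passed. The median log2 fold change over the 39 genes was -0.53, beside -0.03 over all genes tested, and 36 of the 39 estimates were below 0.

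In the beta ring all 7 members were lower in Alt, with a median log2 fold change of -0.78. Psmb3, a structural beta subunit, had 29.2, 18.4 and 24.6 CPM in Ctr, 29.0 and 23.7 in Ref, and 5.01 and 14.9 in Alt. Both Alt libraries lay below all others, and Alt replicate 1 far below. The log2 fold change of Psmb3 was -1.27 (SE 0.38, 95% interval -2.09 to -0.44, adjusted p = 0.127), or 58.5% lower. Psmb1, another structural subunit, had 73.1, 69.2 and 50.7 CPM in Ctr, 59.9 and 47.1 in Ref, and 26.9 and 40.7 in Alt. Alt did not overlap the other groups here either, and Psmb1 was lower by 47.4% (log2 fold change -0.93, SE 0.23, adjusted p = 0.12). Of the catalytic subunits, Psmb7, which carries the trypsin-like site, was the most uniform within groups, at 36.5, 32.7 and 32.4 CPM in Ctr, 29.4 and 29.6 in Ref, and 19.5 and 22.8 in Alt. Psmb7 was lower by 37.6% in Alt (log2 fold change -0.68, SE 0.18, adjusted p = 0.122). Psmb7 overlaps Nek6 on the opposite strand, which had 415 to 701 counts per library, and the strand setting of the counting is not given in the sources used here.

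The other catalytic subunits varied more. Psmb6, with the caspase-like site, had 37.0, 20.7 and 27.1 CPM in Ctr, 27.1 and 26.7 in Ref, and 13.4 and 19.1 in Alt, where Alt replicate 2 was only just below Ctr replicate 2 (log2 fold change -0.80, SE 0.26, adjusted p = 0.148). Psmb5, with the chymotrypsin-like site that proteasome inhibitor drugs bind, had 31.2, 24.4 and 19.1 CPM in Ctr, 22.2 and 18.2 in Ref, and 10.4 and 18.5 in Alt. For Psmb5 Alt and Ref overlapped, and the log2 fold change against Ctr was -0.78 (SE 0.29, adjusted p = 0.173). The structural subunits Psmb4 and Psmb2 had log2 fold changes of -0.68 (SE 0.22, adjusted p = 0.143) and -0.50 (SE 0.20, adjusted p = 0.207).

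In the alpha ring all 7 estimates were below 0 and 5 of 7 passed, with a median of -0.46. Psma4 had 35.9, 24.3 and 30.1 CPM in Ctr, 28.7 and 29.8 in Ref, and 13.3 and 22.7 in Alt, without overlap between Alt and the others (log2 fold change -0.74, SE 0.26, adjusted p = 0.158). Psma6 had 70.7, 68.1 and 56.9 CPM in Ctr, 51.3 and 50.2 in Ref, and 44.8 and 50.8 in Alt, so that both Ref and Alt lay below Ctr (Alt versus Ctr -0.45, SE 0.16, adjusted p = 0.171). Psma1 showed a similar order at 69.6, 56.0 and 59.0 CPM in Ctr, 50.3 in both Ref libraries, and 39.4 and 49.8 in Alt (-0.46, SE 0.17, adjusted p = 0.176). The 2 remaining subunits that passed were Psma7 (-0.60, SE 0.25) and Psma5 (-0.71, SE 0.33), Psma5 with 10.2 CPM in Alt replicate 1 against 23.9 to 34.3 in the other 6 libraries. Psma3 (-0.28, SE 0.20) and Psma2 (-0.13, SE 0.21) did not pass. Psma2 overlaps AW209491 on the same strand, which had 90 to 361 counts.

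Of the 4 alternative core subunits tested, only Psmb8 passed, and on few reads. Psmb8 had 66, 103 and 34 counts in Ctr, 35 and 30 in Ref, and 16 and 6 in Alt, or 3.28, 5.07 and 1.58 CPM, then 1.69 and 1.55, then 1.04 and 0.335. Alt was below all other libraries (log2 fold change versus Ctr -2.27, SE 0.74, adjusted p = 0.143). Psmb9 had 25, 13 and 21 counts in Ctr, 41 and 43 in Ref, and 0 and 18 in Alt, and did not pass (adjusted p = 0.718). Psmb8 (34416695 to 34420428, plus strand) and Psmb9 (34400961 to 34406738, minus strand) lie near each other on chromosome 17 in the coordinates of the table. The build of these coordinates is not given in the sources used here. Psmb9 overlaps Tap1 on the opposite strand, with 28 to 141 counts per library. Psmb10 had 19.2, 12.4 and 15.5 CPM in Ctr, 19.6 and 16.9 in Ref, and 9.50 and 12.9 in Alt, with a log2 fold change versus Ctr of -0.48 (SE 0.26, adjusted p = 0.318). Psma8 was at or below 1 count in all Ctr libraries and in Alt replicate 1, so its fitted fold depends on the prior count added by the fit and is not read as a size.

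The balance between immunoproteasome and constitutive catalytic subunits was then compared as log2 ratios of FPKM values (counts scaled by gene length and library total, with 0.1 added). Psmb8 reached 2.20% to 5.53% of the level of Psmb5 in Ctr, 2.03% and 2.27% in Ref, and 2.66% and 0.481% in Alt. Psmb9 reached 1.58% to 1.84% of Psmb6 in Ctr, 3.75% and 4.26% in Ref, and 0% and 2.69% in Alt. Psmb10 reached 76.0% to 106% of Psmb7 in Ctr, 134% and 115% in Ref, and 97.7% and 114% in Alt. These levels depend on the length used, and per base of the longest protein-coding transcript Psmb10 reached 33.5% to 46.5% of Psmb7 and Psmb8 4.57% to 11.5% of Psmb5 in Ctr. Over the 3 ratios, exact permutation tests of the spread between the 3 groups (two-sided, 210 arrangements of the 7 libraries) gave p = 0.638, 0.19 and 0.181 for Psmb8, Psmb9 and Psmb10, and 0.638, 0.286 and 0.286 after Benjamini-Hochberg adjustment over the 3. None passed 0.05 after adjustment. For Psmb9 both Ref libraries lay above all Ctr libraries, with the Alt libraries on either side of Ctr, and its adjusted p in the exact test was 0.05 without either Alt library in turn, where 60 arrangements allow no smaller value for one ratio alone. Beside them, the summed level of 14 interferon and MHC genes was 300 to 404 CPM in Ctr, 342 and 431 in Ref, and 276 and 269 in Alt. Its genes had a median Alt versus Ctr estimate of -0.43 on the log2 scale.

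In the regulatory particle 15 of 17 estimates were below 0 and 7 of 17 passed, with a median log2 fold change of -0.41, beside -0.68 for the core particle, in which 13 of 18 passed. The ATPase ring had 2 of 6 lower. Psmc2 had 71.0, 55.5 and 58.7 CPM in Ctr, 55.9 and 49.5 in Ref, and 34.5 and 43.3 in Alt, with Alt below all other libraries (log2 fold change versus Ctr -0.67, SE 0.18, adjusted p = 0.122). Psmc6 had 75.9, 80.6 and 64.6 CPM in Ctr against 54.3 and 59.6 in Ref and 54.6 and 60.7 in Alt, so that Ref and Alt lay together below Ctr (Alt versus Ctr -0.35, SE 0.16, adjusted p = 0.251). Psmc5, the most abundant subunit, had 110, 118 and 90.5 CPM in Ctr, 100 and 87.2 in Ref, and 65.6 and 93.5 in Alt, and did not pass (-0.41, SE 0.19, adjusted p = 0.253). Psmc4, Psmc1 and Psmc3 had log2 fold changes of -0.50, -0.28 and -0.25 and did not pass.

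Among the base subunits outside the ATPase ring, the ubiquitin receptor Psmd4 was lower and the 2 large scaffolds were not. Psmd4 had 56.1, 53.0 and 39.6 CPM in Ctr, 51.2 and 34.3 in Ref, and 22.4 and 34.6 in Alt (log2 fold change versus Ctr -0.80, SE 0.25, adjusted p = 0.137), where Alt overlapped Ref. Psmd2 was nearly constant, at 184, 182 and 181 CPM in Ctr, 179 and 182 in Ref, and 183 and 190 in Alt (0.03, 95% interval -0.26 to 0.33, adjusted p = 0.929). Psmd1 had 125, 139 and 98.2 CPM in Ctr, 94.0 and 99.2 in Ref, and 145 and 130 in Alt, and its estimate was above 0 (0.19, SE 0.17, adjusted p = 0.576).

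In the lid all 8 estimates were below 0 and 4 of 8 passed. Psmd8 had 60.9, 49.7 and 47.9 CPM in Ctr, 51.0 and 49.0 in Ref, and 27.2 and 36.4 in Alt, with Alt below all other libraries (log2 fold change versus Ctr -0.73, SE 0.19, adjusted p = 0.12). Psmd13 had 59.4, 51.1 and 43.9 CPM in Ctr, 48.6 and 43.8 in Ref, and 26.3 and 38.5 in Alt, with Alt again below the others (-0.66, SE 0.21, adjusted p = 0.135). Psmd13 overlaps Sirt3 on the opposite strand and the pseudogene Gm15542 on the same strand, with 146 to 413 and 24 to 67 counts. Psmd14, the deubiquitinase of the lid, had 62.0, 61.2 and 54.0 CPM in Ctr, 43.0 and 48.7 in Ref, and 30.6 and 49.6 in Alt (-0.56, SE 0.21, adjusted p = 0.174), so that Ref also lay below Ctr. Psmd7, the partner of Psmd14, was the remaining lid subunit that passed (-0.58, SE 0.23), and Psmd6, Psmd3, Psmd11 and Psmd12 had log2 fold changes of -0.49, -0.33, -0.28 and -0.21.

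The smallest p among all 39 genes belonged to a chaperone. Psmd9, which holds ATPases of the base during assembly, had 17.8, 15.4 and 12.2 CPM in Ctr, 13.4 in both Ref libraries, and 5.72 and 7.36 in Alt. Both Alt libraries were well below all others, and the log2 fold change versus Ctr was -1.21 (SE 0.26, 95% interval -1.78 to -0.64, adjusted p = 0.12, adjusted p = 0.12), or 56.7% lower. Psmd10 had 6.85, 8.66 and 8.50 CPM in Ctr, 9.87 and 7.03 in Ref, and 5.53 and 5.58 in Alt, and did not pass although Alt lay below all other libraries (-0.53, SE 0.29, adjusted p = 0.331). Psmd5 had 58.7, 59.0 and 54.5 CPM in Ctr, 50.8 and 53.6 in Ref, and 55.5 and 58.2 in Alt, with an estimate near 0 (-0.01, SE 0.15) that turned above 0 under another scaling of the libraries (0.01). Psmc3ip had 28, 4 and 24 counts in Ctr, 26 and 25 in Ref, and 0 and 22 in Alt, a spread within groups as wide as that between them.

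**Figure D2:**
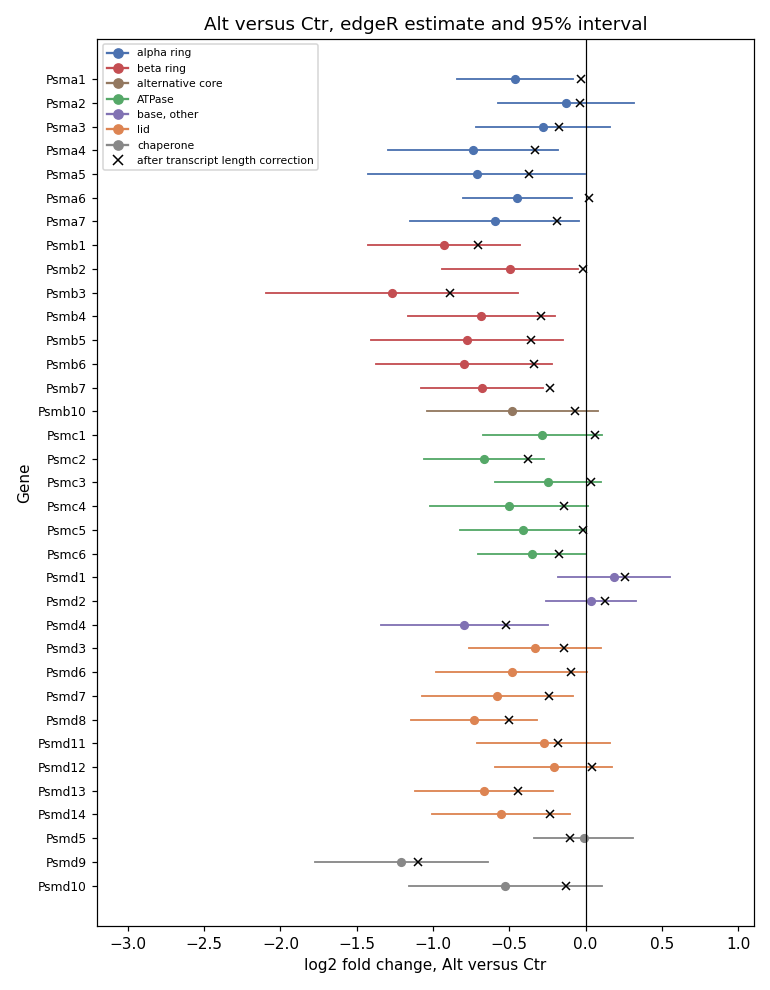
Log2 fold change of Alt versus Ctr for 35 genes (Psma8, Psmb8, Psmb9, with few reads, and Psmc3ip are left out), with 95% intervals from edgeR, colored by role; crosses give the estimate after correction for transcript length. All 7 beta subunits have intervals below 0, Psmd1 and Psmd2 are at 0.19 and 0.03, and for Psma6 the cross is at 0.02.

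The change was unequal in the Alt libraries. Alt replicate 1 was the lowest of the 7 libraries for 31 of the 39 genes, where it was the lowest for 32.2% of all genes tested. Relative to the mean of Ctr, the core particle had a median log2 level of -0.97 and -0.34 in the Alt libraries (replicates 1 and 2), and the regulatory particle of -0.68 and -0.21. The Ref libraries had -0.06 and -0.23 for the core and -0.07 and -0.27 for the regulatory particle, so that Alt replicate 2 lay near Ref replicate 2. The difference of the core median and the regulatory median was 0.02 to 0.10 in Ctr, 0.00 and 0.04 in Ref, and -0.29 and -0.14 in Alt. In both Alt libraries the core median was thus further below Ctr than that of the regulatory particle, and no other library had a difference below 0. Both Alt libraries were below every Ctr library for 24 of 39 genes (18.1% of all genes), and below every Ctr and Ref library for 16 of 39 (13.1% of all genes). The 16 were Psma1, Psma4, Psmb1, Psmb2, Psmb3, Psmb4, Psmb6, Psmb7, Psmb8, Psmc1, Psmc2, Psmd7, Psmd8, Psmd13, Psmd9 and Psmd10.

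Without Alt replicate 1, 7 of 39 genes were lower than Ctr, where 4.46% of all genes were. The lone Alt library was here assumed to vary like the Ctr and Ref libraries, which differed less among themselves than the 2 Alt libraries did. They were Psmb1, Psmb3, Psmb7, Psmb8, Psmc2, Psmd8 and Psmd9, among them Psmb3 at -0.69 (SE 0.29, adjusted p = 0.579) and Psmd9 at -1.04 (SE 0.31, adjusted p = 0.485). Without Ctr replicate 1, which had the highest median log2 level of these genes (0.18 above the mean of Ctr), 10 of 39 were lower, where 6.06% of all genes were.

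**Figure D3:**
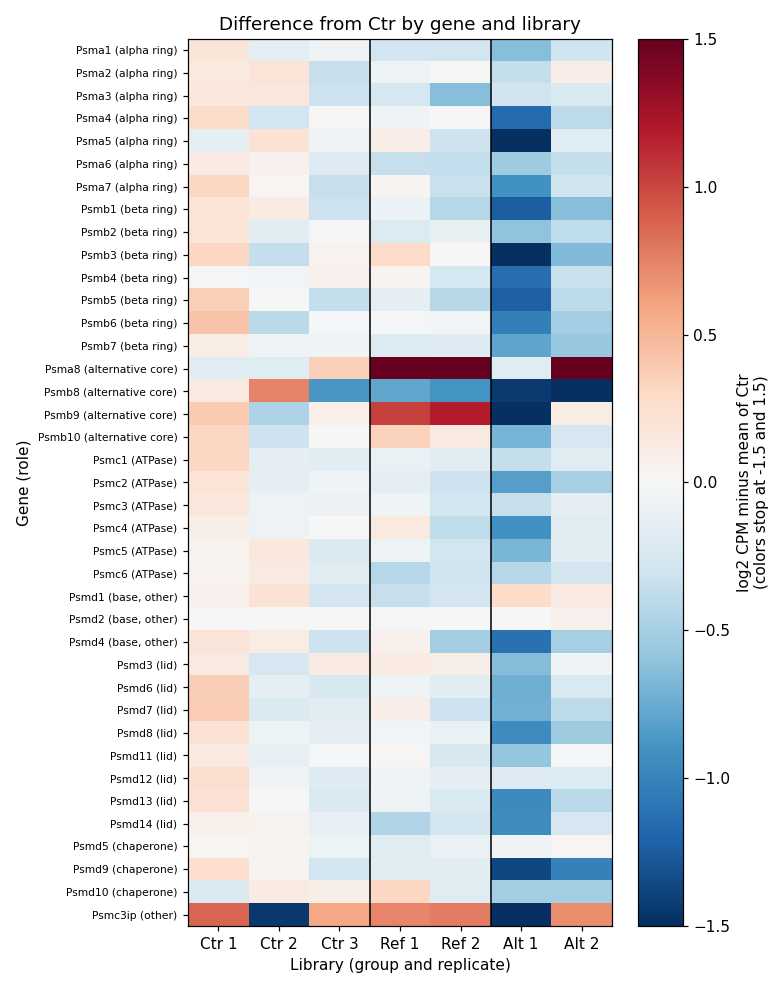
Log2 CPM of each of the 39 genes tested minus its mean over the Ctr libraries, by library; blue is lower and red higher than Ctr, and colors stop at -1.5 and 1.5. The column of Alt replicate 1 is lowest for 31 of the 39 genes, Psmb3 and Psmd9 are blue in both Alt libraries, and Psmd1 and Psmd2 are not.

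Proteasome transcripts are short, and short transcripts as a class were lower in Alt. The median length of the longest protein-coding transcript (GENCODE M21) was 1581 bases for the 39 genes and 2967 for all genes tested. It was 899 bases in the beta ring, 1201 in the alpha ring, 1688 in the ATPase ring and 1969 in the lid. Over all genes with transcripts of up to 1000 bases, the median log2 difference from Ctr was -0.73 and -0.24 in the first and the second Alt library. For genes from 1000 to 2000 bases, which hold 26 of the 39, it was -0.62 and -0.20, and for genes above 5000 bases it was 0.50 and 0.19. Over the 5 length classes the medians lay between -0.05 and 0.13 in the Ref libraries. Among the Ctr libraries they went from 0.13 in the shortest class to -0.12 in the longest in replicate 1 and from -0.08 to 0.07 in replicate 2. The trend of Alt replicate 2 was thus larger than that of Ctr replicate 2, in the same direction, and that of Alt replicate 1 was the largest of the 7 libraries. Over the 35 subunits tested, Spearman's rho of the Alt versus Ctr log2 fold change with transcript length was 0.53, and 0.19 with the deposited gene length. Without Psmb8, Psmb9 and Psma8, which had few reads, the values were 0.60 and 0.31 over 32 subunits. These values are a description over genes that share the same libraries.

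After the counts of each library were corrected for gene length as the table gives it, 12 of the 39 genes were lower in Alt than in Ctr, where 8.99% of all genes were, and the core and regulatory medians were -0.42 and -0.28. With the transcript length in its place, 8 of 39 were lower, where 7.74% of all genes were, and the medians were -0.26 and -0.14. The 8 were Psmb1, Psmb3, Psmb8, Psmc2, Psmd4, Psmd8, Psmd9 and Psmd13. Psmd9, whose transcript of 2597 bases is longer than that of most of the others, moved least in size among those that passed, from -1.21 to -1.10, and Psmb3 went from -1.27 to -0.89. Estimates for Psma6, Psmc1, Psmc3 and Psmd12 turned above 0, at 0.02, 0.06, 0.03 and 0.04. Whether RNA quality had a part in the length trend was not tested.

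**Figure D4:**
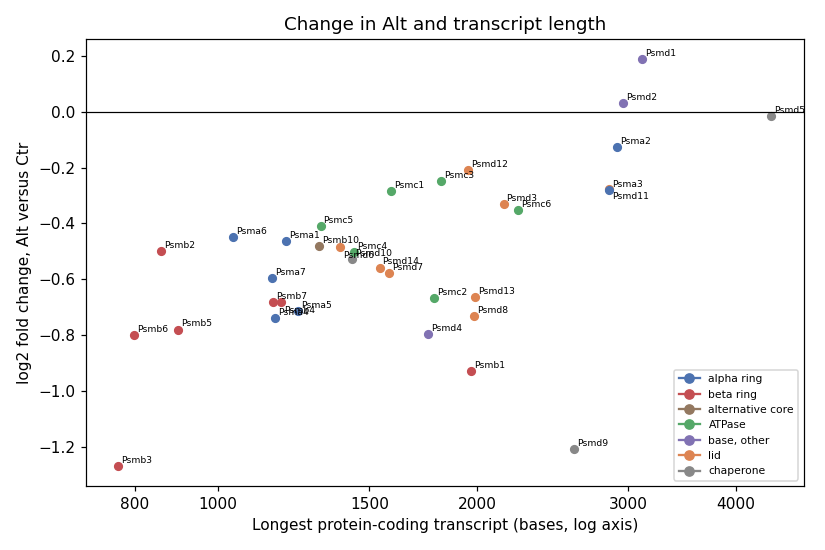
Log2 fold change of Alt versus Ctr against the length of the longest protein-coding transcript in bases (log axis) for 35 genes, colored by role. The beta subunits lie between -1.27 and -0.50, Psmd1 and Psmd2 with 3112 and 2961 bases lie at or above 0, and Psmd9 with 2597 bases lies at -1.21, far below the others of its length.

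**Figure D5:**
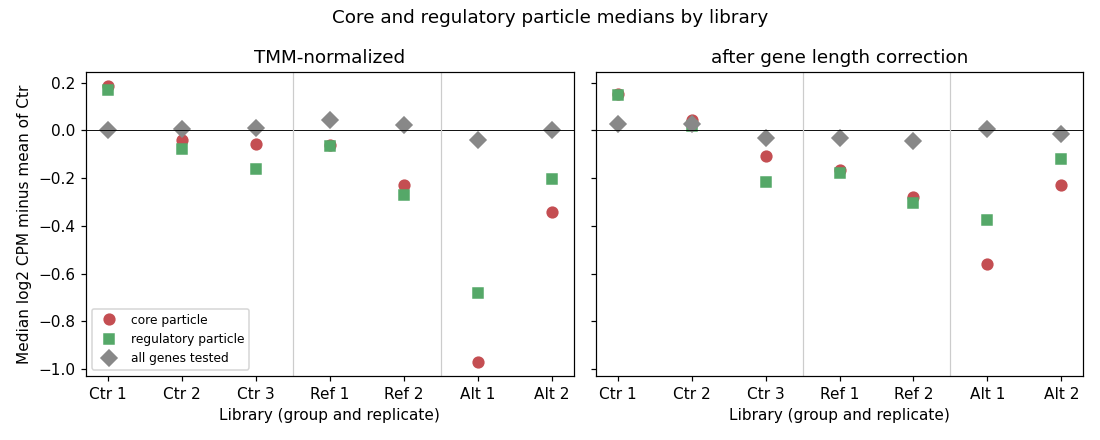
Median log2 CPM minus the mean of Ctr over the core particle, the regulatory particle and all genes tested, by library, before (left) and after (right) correction for the gene length in the table. The core median in the Alt libraries is -0.97 and -0.34 on the left and -0.56 and -0.23 on the right, and all genes tested stay near 0. After correction Alt replicate 2 no longer lies below Ref replicate 2, whose core median is -0.28.

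Alt was next compared with Ref, the comparison between the alleles, which shares the Alt libraries with the one above. At the unadjusted threshold 11 of 39 genes were lower in Alt and 1 was higher, where 15.5% of all genes passed in either direction, 8.83% being lower and 6.71% higher. By edgeR 0 of the 39 passed the adjusted threshold, and by DESeq2 1 did (Psmb3, adjusted p = 0.0299), where these placed 0.0058% and 2.6% of all genes. The median log2 fold change was -0.44 over the 39 genes, -0.60 in the core and -0.24 in the regulatory particle, beside -0.04 over all genes. The smallest p belonged to Psmd9 (-1.03, SE 0.28, adjusted p = 0.23), Psmb3 (-1.40, SE 0.40, adjusted p = 0.236) and Psmd8 (-0.65, SE 0.20, adjusted p = 0.236). Psmd1 was the gene that was higher in Alt than in Ref (0.51, SE 0.19, adjusted p = 0.247). Apart from Psmb3, the beta subunits lower in Alt were Psmb1, Psmb4, Psmb6 and Psmb7, at -0.66, -0.58, -0.73 and -0.48. The remaining genes lower were Psma4 at -0.70, Psmb10 at -0.70, Psmc2 at -0.44 and Psmd13 at -0.51. Both Alt libraries lay below both Ref libraries for 22 of 39 genes, where this held for 26.1% of all genes, and above both for 3 of 39 (21.6%). After correction for gene length 4 genes were lower (5.58% of all genes), and after correction for transcript length 2 were lower (4.89%) and 2 higher (Psmd1 and Psma6, 6.32%), with medians of -0.02 over the 39 genes, -0.15 in the core and 0.12 in the regulatory particle, which thus turned above 0. Without Alt replicate 1, 3 were lower (4.4% of all genes). Beside these values, 6 of 7 oligodendrocyte markers were lower in Alt than in Ref and 0 were higher, with a median log2 fold change of -1.0, and their part in the proteasome values was not tested.

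Between Ref and Ctr fewer genes differed at the unadjusted threshold. At the unadjusted threshold 3 of 39 genes were lower in Ref and 1 was higher, where 3.14% of all genes passed, 0.945% being lower and 2.19% higher. None of the 39 passed the adjusted threshold by edgeR (0 of 17254 genes, or 0.0%) or by DESeq2, which placed 0.0348% of all genes. The 3 were Psmc6 (-0.37, SE 0.16, adjusted p = 1), Psma3 (-0.46, SE 0.20, adjusted p = 1) and Psma6 (-0.36, SE 0.16, adjusted p = 1). Psma3 had 54.9, 55.6 and 39.3 CPM in Ctr, 41.0 and 31.6 in Ref, and 40.3 and 42.1 in Alt, with Ctr replicate 3 inside the range of the others. The gene higher was Psma8, with 14 and 13 counts in Ref against 0, 0 and 1 in Ctr. Psma8 passed the filter on low counts only through Ref and Alt replicate 2, where it had reads. Its call is therefore not taken as support for a difference. The median log2 fold change was -0.13 in the core and -0.15 in the regulatory particle, beside 0.01 over all genes, and 32 of 39 estimates were below 0. Without 1 library in turn these medians ranged from -0.23 to -0.09 and from -0.28 to -0.04, and without Ctr replicate 1 24 of 39 estimates were below 0. After correction for gene length or for transcript length 6 of 39 were lower (3.23% and 4.01% of all genes), with Psma1, Psmd1 and Psmd14 beside the 3, and the median over the 39 genes was -0.21 under either, beside -0.06 and -0.07 over all genes. Each of the 3 lower genes depended on single libraries, since without Ctr replicate 1, Ctr replicate 2 or Ref replicate 2 in turn, 0 genes were lower (0.772%, 0.551% and 0.551% of all genes).

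Genes that act with the proteasome were described from lists of activators, assembly factors, associated proteins, ubiquitin genes, shuttles, p97 cofactors and transcription factors. Of 44 genes 43 were in the table and tested. In Alt versus Ctr 11 were lower and 3 higher, where 10.3% and 9.45% of all genes were, 0 passed the adjusted threshold by edgeR, and the median log2 fold change was -0.10. In Alt versus Ref 8 were lower and 4 higher (8.83% and 6.71% of all genes), and in Ref versus Ctr 2 were lower and 0 higher (0.945% and 2.19%). Among 5 activator and inhibitor genes, both subunits of the interferon-inducible activator were lower, Psme1 (-0.83, SE 0.34, adjusted p = 0.207) and Psme2 (-1.69, SE 0.60, adjusted p = 0.166). Psme1 had 19.5, 10.3 and 18.0 CPM in Ctr, 16.8 and 14.4 in Ref, and 5.98 and 11.8 in Alt, with Alt replicate 2 inside the Ctr range. Of the 7 assembly factors, Pomp, which matures the core particle, was lower (-0.58, SE 0.20, adjusted p = 0.158), with 47.3, 46.5 and 43.3 CPM in Ctr, 39.0 and 47.8 in Ref, and 24.7 and 36.3 in Alt. The alpha ring chaperones Psmg1 (-0.79, adjusted p = 0.182) and Psmg2 (-0.87, adjusted p = 0.208) were lower too.

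Among 10 proteasome-associated genes, the lid component Sem1 (-0.74, SE 0.24, adjusted p = 0.148) and the phosphatase Ublcp1 (-0.45, SE 0.19, adjusted p = 0.215) were lower, and the scaffold Ecpas was higher (0.45, SE 0.17, adjusted p = 0.174). Of 6 ubiquitin and E1 genes, the ubiquitin precursors Ubb (-0.92, SE 0.28, adjusted p = 0.127) and Rps27a (-1.17, SE 0.40, adjusted p = 0.157) were lower, and the E1 enzyme Uba6 was higher (0.57, SE 0.23, adjusted p = 0.2). Ubb had 475, 272 and 353 CPM in Ctr, 425 and 316 in Ref, and 139 and 248 in Alt, so that Alt lay below all other libraries. Rps27a had 148, 65.3 and 45.8 CPM in Ctr, 41.7 and 48.0 in Ref, and 29.3 and 47.2 in Alt, with Ctr replicate 1 far above the others, and without that library its estimate was -0.54 (SE 0.26, adjusted p = 0.446). Of 4 p97 genes, the cofactors Ufd1 (-0.57, SE 0.17, adjusted p = 0.127) and Nsfl1c (-0.63, SE 0.27, adjusted p = 0.223) were lower, and Vcp itself had -0.12. Among 6 shuttles Ddi2, the protease that activates Nfe2l1, was higher (0.37, SE 0.16, adjusted p = 0.231). None of 5 transcription factors passed in Alt versus Ctr (0 of 5 in either direction). In Alt versus Ref Nfe2l2 was lower (-0.65, SE 0.29, adjusted p = 0.315). Nfe2l1, the main activator of proteasome genes when the proteasome is inhibited, had 252 to 293 CPM in Ctr, 289 and 275 in Ref, and 289 and 248 in Alt. Its Alt versus Ctr estimate was -0.02 (SE 0.15, adjusted p = 0.957). Of the 14 related genes that passed, Sem1, Ubb and Ufd1 passed in each of the 7 fits that left out 1 library, and the other 11 did not in at least 1 of them. Without Alt replicate 1 the estimates of all 14 were smaller in size, among them Psmg2 at -0.355, Psme1 at -0.43 and Ubb at -0.57. Pomp, Ecpas and Uba6 were then at -0.33, 0.20 and 0.26. After correction for gene length Ecpas, Ddi2 and Uba6 were at 0.13, 0.14 and 0.39. The lower genes Ubb, Rps27a, Psme2 and Pomp were at -0.61, -0.89, -1.42 and -0.60. Psme1, Psmg1, Psmg2 and Sem1 were at -0.60, -0.43, -0.60 and -0.58, and Ublcp1, Ufd1 and Nsfl1c at -0.23, -0.49 and -0.52. Correction for transcript length is not given for the related genes.

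Since Nfe2l1 acts through antioxidant response elements, the promoters of the genes (250 bases before to 50 after each RefSeq start site, GRCm38.p6) were searched on both strands for its core TGACNNNGC, for the ETS core CCGGAAG and for CCAAT. Promoters were matched by symbol for 33 of the 40 genes (35 promoters), 17 of which were lower in Alt than in Ctr. The antioxidant core was found in 5 of 35 promoters, where 12.4% of all 32851 promoters hold it, and 4 of the 17 lower genes had one. The stretches that hold it are shown with the matched letters in capitals, as read on the strand of the gene. A match on the other strand reads as the reverse complement of the core, as in Psmc6 and Psmd12.
Psmb5, chr14:54618023-54618052, minus strand: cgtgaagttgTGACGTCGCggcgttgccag
Psmb6, chr11:70525327-70525356, plus strand: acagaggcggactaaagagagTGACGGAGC
Psmd9, chr5:123228149-123228178, plus strand: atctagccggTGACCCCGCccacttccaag
Psmc6, chr14:45329587-45329616, plus strand: ccagccagtaGCTAAGTCAggcattgctca
Psmd12, chr11:107479278-107479307, plus strand: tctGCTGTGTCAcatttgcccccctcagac

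The matches of Psmd9, Psmb5 and Psmb6 ended 23, 39 and 1 bases before the start site and those of Psmc6 and Psmd12 219 and 239 bases before it. Psmd9, with the smallest p in the set, and the catalytic genes Psmb5 and Psmb6 were lower in Alt than in Ctr, as was Psmc6 (-0.35, SE 0.16, adjusted p = 0.251). Psmd12 (-0.21, SE 0.18) did not pass. After correction for transcript length only Psmd9 of these genes still passed. The antioxidant core was about as common in the promoters of the set (5 of 35) as in all promoters (12.4%). The ETS core was found in 12 of 35 promoters, where 8.86% of all promoters hold it. They belonged to 11 genes, 5 of which were lower in Alt. A pair of lower genes and the scaffold Psmd2, which did not pass, are shown.
Psmc2, chr5:21785180-21785209, plus strand: accagtgagcaCTTCCGGgatggggctcgc
Psmd4, chr3:95042721-95042750, minus strand: ttacagctgttCCGGAAGctgctgcgaagg
Psmd2, chr16:20651615-20651644, plus strand: tccgcagggcgCTTCCGGtctggaggacaa

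The CCAAT letters occurred in 14 of 35 promoters, where 37.4% of all promoters hold them. Psmb3, the beta subunit with the lowest Alt versus Ctr estimate, had 2 of them in the same orientation.
Psmb3, chr11:97703337-97703366, plus strand: cggcatgagtgtCCAATagaaagctgaact
Psmb3, chr11:97703379-97703408, plus strand: tcggcccgccagCCAATggggaggattcgg
In the promoters shown, matches of different motifs shared no bases. These matches describe letters in the windows and were not tested for binding.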

How the data were processed

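PFC RNA was enriched for polyA tails by the submitters, who per the labels made TruSeq libraries. Their processing notes name STAR, featureCounts and hg19, without versions. That build is human while the gene IDs are mouse, and the mouse build and annotation are not given in the sources used here, so the coordinates in the table were not used with the reference sequences. The authors deposited 1 table with raw read counts, TPM and FPKM values and a gene length per gene. FPKM values deposited by the authors equal the count over length and library total, and the TPM values deposited sum to the same total in each library. Values of the 7 libraries were used with the deposited gene names, types, lengths and positions.

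Genes passing edgeR's filterByExpr (17254) were scaled by TMM (factors 0.924 to 1.05) and fitted with glmQLFit over the 3 groups, all 7 libraries sharing 1 estimate of the spread, with glmQLFTest contrasts (R 4.3.3, edgeR 4.0.16). Alternatives were DESeq2 1.42.0 (group or numeric score), RLE scaling, no filter, only the groups compared, protein-coding genes only, gene length corrected by loess (span 0.3), a replicate block and leaving out each library. Corrections for transcript length and GC content, and length together with leaving out Alt replicate 1, were chosen after seeing the data. CPM values used TMM sizes, and log2 CPM per library a prior count of 2. Library totals of 16655697 to 20750857 set the counting precision. The code was tested on simulated data.

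The 40 genes, their roles and the lists of related and marker genes were chosen with earlier results of these data known. Given with values were the 3 genes of smallest p (Alt versus Ctr) in each role, the 4 of smallest p in each other comparison, the most and least abundant genes, the immunoproteasome genes with their counterparts, and up to 3 genes per related list. Pseudogenes with matching symbols (5) were left out.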

Additional observations from a re-analysis of the deposited data

How the results depend on the processing

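In Alt versus Ctr, the count of members lower at an unadjusted p under 0.05 (21 of 39) went to 12 with gene length corrected, to 8 with transcript length corrected and to 7 with gene length corrected and Alt replicate 1 left out, and ranged from 7 to 29 when 1 library was left out. The count at an adjusted p under 0.05 (0) went to 9 with DESeq2's Wald test, to 14 without the filter on low counts and to 5 with DESeq2 on the numeric score over protein-coding genes, and ranged from 0 to 20 with 1 library left out, 20 being the count without Alt replicate 2 (18.3% of all genes), where the lone Alt library was assumed to vary like the other groups. The core median (-0.68) went to -0.42, -0.26 and -0.26 under gene length, transcript length and gene length without Alt replicate 1, and the regulatory median (-0.41) to -0.14 and -0.14 under the latter pair. With 1 library left out they ranged from -1.11 to -0.35 and from -0.69 to -0.22.

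In Alt versus Ref, the count lower (11) went to 4 with gene length corrected, 7 with only the 2 groups compared, 2 with transcript length corrected, 5 with GC content corrected and 3 with gene length corrected without Alt replicate 1, and ranged from 3 to 23 with 1 library left out. The adjusted count (0) went to 1 with DESeq2 (2.6% of all genes) and to 2 without the filter (850 of 26895 genes). Without each Ctr library in turn it stayed at 0, and it rose without Alt replicate 2. The core median (-0.60) went to -0.23, -0.15 and -0.018 under gene length, transcript length and gene length without Alt replicate 1. In the same order the regulatory median (-0.24) went to -0.07, 0.12 and 0.10. With GC content corrected the core and regulatory medians were -0.355 and -0.132. With 1 library left out they ranged from -0.94 to -0.22 and from -0.57 to -0.085. In Ref versus Ctr, the count lower (3) went to 6 with gene length corrected (3.23% of all genes) and to 6 with transcript length corrected (4.01%). It went to 1 without the filter (237 of 26895 genes) and to 1 with GC content corrected. Without Ctr replicates 1, 2 and 3 in turn it was 0, 0 and 4, where 131 of 16965, 93 of 16888 and 196 of 16997 genes were lower.

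Single estimates that turned above 0 in Alt versus Ctr were Psmd5 (0.010 with RLE, 0.010 with DESeq2, 0.003 over protein-coding genes), Psmd12, Psmc1 and Psma2 (0.023, 0.027 and 0.003 with gene length), Psmc3, Psmd12, Psma6 and Psmc1 (0.033, 0.041, 0.019 and 0.062 with transcript length), and Psmc3ip, Psma2 and Psmb9 (0.606, 0.116 and 0.119 with gene length without Alt replicate 1). Among the members that passed the unadjusted threshold in Alt versus Ref they were Psmb7 (0.033 with transcript length) and Psmb4 (0.014 with gene length without Alt replicate 1), and over all 39 the estimates above 0 went from 5 to 14 with gene length and 19 with transcript length. With 1 library left out, Alt versus Ctr estimates of Psmd5 ranged from -0.05 to 0.022, of Psma2 from -0.37 to 0.082, of Psmc3ip from -7.16 to 0.44, of Psmb9 from -7.23 to 0.075 and of Psma8 from -1.81 to 5.83, the last 3 with groups at or near 0 counts, where a fitted value is no measure of size. The cause of these changes was not tested. Same-numbered replicates correlated at -0.10 to 0.07 in their deviations from the group means. With 2 libraries in Ref and in Alt these deviations mirror each other, so the correlations cannot decide whether the numbers pair the libraries. With a replicate block 18 members were lower in Alt versus Ctr, where 1052 of 17254 genes were. In Alt versus Ref 4 members were lower (906 genes), and in Ref versus Ctr 3 were (122 genes). The core medians were then -0.73, -0.64 and -0.20. The 3 immunoproteasome ratios had adjusted p of 0.05 to 0.93 with 1 library left out with Psmb9 at 0.05, the smallest value possible for one ratio alone, without either Alt library in turn.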

Other observations

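The processed pseudogene Psma5-ps, which the rule left out, had 162, 79 and 45 counts in Ctr, 42 and 102 in Ref, and 97 and 95 in Alt, so that its spread within Ctr was wider than that between groups. The other 4 pseudogenes with matching symbols had at most 3 counts in any library. Psma5 itself had 540, 697 and 607 counts in Ctr, 657 and 463 in Ref, and 157 and 466 in Alt. Both are uncertain, since they share sequence and how reads that match both were counted is not given in the sources used here.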
